A study of Mus musculus with 8 samples.

Results

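Liver mRNA of mice given betaine on a high-fat diet was compared with that of mice on the same diet alone, outside the genes of cholesterol synthesis, fatty acid oxidation and synthesis, the respiratory chain, the spliceosome and the ribosomal proteins. The comparison used the 4 RNA-seq libraries among the 8 libraries of the series, 2 of the M group (M1 and M2, HF in the labels) and 2 of the B group (B1 and B2, HB in the labels). It covered the 10687 of 24539 gene entries with a mean of at least 1 RPKM over these libraries, where RPKM is a read count scaled to the length of the transcript in kilobases and to the reads of the library. Both groups were male C57BL/6 mice, taken at 8 weeks of age, fed a diet whose fat supplied 45% of the energy, and the livers were taken at week 25. Mice of the B group also received 2% (w/v) betaine in their water. The study's methods give 17 weeks of diet and the labels give 25. The labels state that RNA preparations were pooled in equal amounts before the libraries were made, and the methods state that 2 mice per group were sequenced. Replicates are therefore counted as libraries, and the p-values measure only the spread between libraries, which may be technical. Reads on genes numbered 11661217 in M1 and 11824138 in M2, and 22543490 in B1 and 18082701 in B2, so that 3 reads on a transcript of 1 kb gave between 0.133 and 0.257 RPKM.

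The liver secretes most proteins of the blood plasma, converts drugs, hormones and bile acids to forms that can be excreted, and breaks down amino acids. Detoxification runs in successive phases, in which oxidases, reductases and hydrolases first expose a reactive group and transferases then attach glutathione, glucuronic acid, sulfate or an amino acid to it. Betaine is the methyl donor of betaine-homocysteine methyltransferase in the methionine cycle, and its further breakdown yields glycine by way of dimethylglycine and sarcosine. Hepatocytes share the liver with Kupffer cells, the resident macrophages, with sinusoidal endothelial cells and with stellate cells, which store vitamin A and lay down matrix.

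Of the 10687 genes tested, 246 (2.30%) were higher in the B group and 701 (6.56%) were lower, with the thresholds of the study in limma, which are a log2 change of more than 1 in size and a p below 0.001 before adjustment. A gene past both is said to have passed, risen or fallen. Where a call was lost in another fit, the adjusted p of that fit is given, which can be low because the threshold is on the p before adjustment. All of these calls had a Benjamini-Hochberg adjusted p of at most 0.0113. The functions set aside held 45 of the higher and 36 of the lower genes, which left 201 higher and 665 lower. In the 38 gene lists described here stood 49 of these higher and 48 of these lower genes. Gene positions are those of GENCODE M21 on GRCm38 (mm10). Members of the lists that a fixed rule did not choose (the rule stands with the processing) are named because they passed the test, or were chosen after their values were seen where that is said. Apart from the fixed anchor genes, the rule took only called genes whose groups do not overlap. For those genes the lack of overlap is not a separate result. The median log2 fold change of all tested genes was -0.19. When the log2 values of each library were shifted to a common median, which moved all genes up by 0.27 in the B group relative to the M group, 540 genes were higher and 291 lower, so that 65.0% of the calls were higher instead of 26.0%. At an adjusted p under 0.05 with the same fold, 535 (5.01%) were higher and 1353 (12.7%) lower. The counts of a list in another fit stand against those of all genes in that fit. Without library B2 the counts were 503 higher and 1055 lower, and without M1 they were 169 and 535. With no filter on low genes 41 of the 82 named calls missed the threshold, and the lost calls given beside single genes are those without 1 library or on a common median.

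The change of a gene also varied with the length of its longest annotated transcript. Among the 2621 shortest genes (174 to 2049 bp) the median log2 fold change was 0.06, and 4.20% of genes were higher and 3.93% lower. Among the 2618 longest (4570 bp and above) the median was -0.35, and 0.573% were higher and 8.21% lower. By class of gene, 2.35% of the protein-coding genes were higher and 6.35% lower, against 0.383% and 10.7% of the noncoding RNA genes and 1.49% and 20.9% of the pseudogenes. The part of transcript length in the results of each gene list was not tested, but medians relative to genes of similar length (the 4 classes of equal size) are given beside some of the lists.

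**Figure D1:**
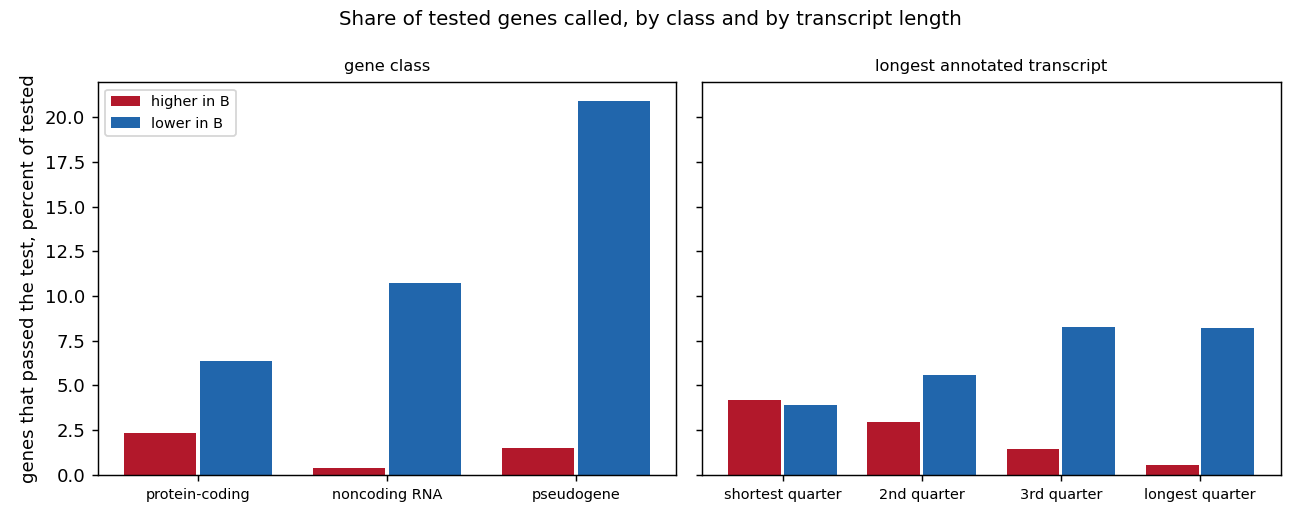
Percent of tested genes that passed the test as higher (red) or lower (blue) in the B group, by gene class (left) and by 4 classes of equal size of the longest annotated transcript (right). Lower calls reached 20.9% in pseudogenes, and higher calls fell off from 4.20% in the shortest class to 0.573% in the longest.

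Enzymes of the first phase of detoxification other than the cytochromes P450 lay above 0 on the log2 scale in 45 of 62 tested genes. Of these members, 13 (21.0%) rose and 1 (1.61%) fell, against 2.30% and 6.56% of all genes, and the median log2 fold change was 0.64 (0.91 on a common median and 0.78 relative to genes of the same length). Those that rose were aldo-keto reductases (Akr1a1, Akr1b3, Akr1c6, Akr1c12, Akr1c13 and Akr1c19), carboxylesterases (Ces2c and Ces2e), dehydrogenases of alcohols, aldehydes and retinoids (Adh5, Aldh1a7, Dhrs1 and Dhrs4) and microsomal epoxide hydrolase, Ephx1. Ces2e (chr8:104926260-104934672), a carboxylesterase of the endoplasmic reticulum, had 16.6 and 23.2 RPKM in M1 and M2 and 142 and 77.9 in B1 and B2. Both B libraries lay above both M libraries, with a log2 fold change of 2.36 ± 0.33 (SE, n = 2 libraries per group) and an adjusted p of 0.00523. Akr1c13 (chr13:4191150-4205596), a reductase of ketosteroids and other carbonyls, had 10.3 and 11.6 RPKM in the M libraries and 61.5 and 35.8 in the B libraries, a log2 fold change of 2.01 ± 0.30. Its neighbour Akr1c19 (chr13:4228700-4252843) went from 8.63 and 6.20 to 39.1 and 26.1 RPKM, a log2 fold change of 1.98 ± 0.29. Neither gene's groups overlapped. Akr1c6, a hydroxysteroid dehydrogenase and the most abundant of the 4 Akr1c genes that rose, had 106 and 196 RPKM in M1 and M2 and 696 and 394 in B1 and B2. The exception was Ces1b (chr8:93056728-93080017), another carboxylesterase, which fell from 108 and 133 to 24 and 51.4 RPKM with a log2 fold change of -1.74 ± 0.35 and an adjusted p of 0.00928. The count of higher members ranged from 6 (without M1) to 19 (without B2) when single libraries were left out, and that of lower ones from 1 to 3. Without M1, Adh5, Akr1a1, Akr1b3, Akr1c6, Ces2c, Dhrs4 and Ephx1 missed the threshold (adjusted p = 0.0311 to 0.091), and each of these 7 also missed it without 1 other library. The call of Ces1b was lost on a common median (adjusted p = 0.0208). Akr1c genes are related in sequence to differing degrees, and how reads were divided among them is not given in the sources used here.

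The cytochromes P450 of families 1 to 3, the haem oxidases that act on most drugs, held calls in both directions. Of 37 tested members, 1 (2.70%) rose and 5 (13.5%) fell, against 2.30% higher and 6.56% lower among all genes, and the median log2 fold change was -0.05, which turned to 0.22 on a common median. There the counts turned as well, to 5 higher and 3 lower, where 540 and 291 of all genes were. At an adjusted p under 0.05 they were 6 and 6, where 5.01% of all genes were higher and 12.7% lower. Without M1, M2, B1 or B2 they were 3, 3, 2 or 4 higher and 6, 5, 6 or 5 lower. Cyp2b13 (chr7:26061497-26096197), a P450 with higher levels in female than in male liver, had 7.13 and 8.47 RPKM in the M libraries and 0.780 and 0.825 in the B libraries. Its log2 fold change was -2.28 ± 0.24 with an adjusted p of 0.00493, and the 2 libraries of each group lay close together. Cyp2b13 met the filter of a mean of 1 RPKM only through the M libraries. Cyp2a22 (chr7:26931631-26939384) fell from 46.6 and 43.3 to 13.2 and 11.9 RPKM, a log2 fold change of -1.76 ± 0.24. Cyp2j9 fell from 39.1 and 43.2 to 5.86 and 12.97, a log2 fold change of -2.10 ± 0.34. Cyp2c54 and Cyp2d13 were the others that fell, and they and Cyp2j9 have close paralogues in the genome. Cyp2d13 is annotated as a transcribed pseudogene. Cyp2d11 (chr15:82389154-82394022) rose from 4.69 and 6.97 to 28.6 and 21.7 RPKM, a log2 fold change of 1.94 ± 0.28. The abundant Cyp2e1, which oxidises ethanol and small solvents, had 2232 and 2517 RPKM in the M libraries and 4454 and 4531 in the B libraries. These groups did not overlap, but the log2 fold change of 0.92 ± 0.31 did not pass the test (adjusted p = 0.0518). Cyp3a11, the main drug-oxidising P450 of the mouse, had 378 and 413 RPKM in M1 and M2, between the 716 and 298 of B1 and B2. On a common median the calls of Cyp2c54 and Cyp2d13 were lost (adjusted p = 0.0204 and 0.0218), and that of Cyp2c54 was also lost without M2 (adjusted p = 0.0367).

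**Figure D2:**
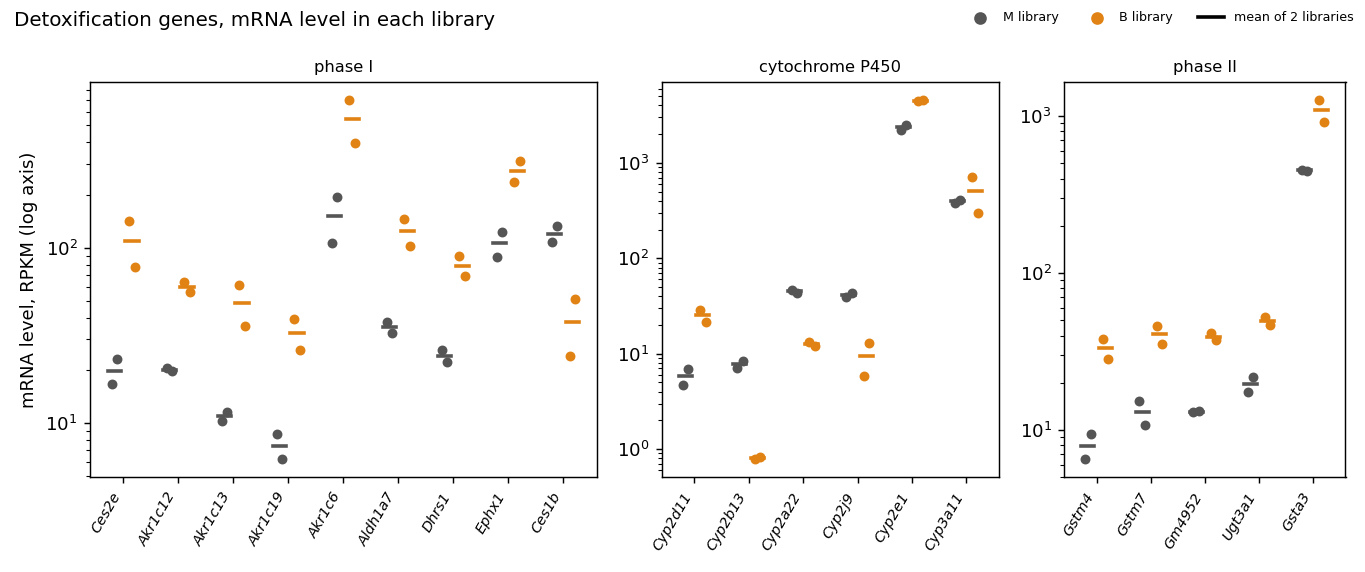
RPKM (log axis) of detoxification genes in each M (grey) and B (orange) library, with the mean of the 2 libraries as a bar. Of the genes drawn, Cyp2e1, Cyp3a11 and Gsta3 did not pass the test, and the B libraries of Cyp3a11 lie on both sides of its M libraries.

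Conjugating enzymes of the second phase held more higher than lower calls. Of 66 tested members, 6 (9.09%) rose and none fell, against 2.30% higher and 6.56% lower among all genes, 50 had a log2 fold change above 0, and the median was 0.51 (0.78 on a common median and 0.57 relative to genes of the same length). At an adjusted p under 0.05 with the same fold, 18 were higher and 2 lower, where 5.01% and 12.7% of all genes were. Gstm4 (chr3:108040408-108044894), a glutathione transferase of the mu class, had 6.50 and 9.42 RPKM in M1 and M2 and 37.9 and 28.5 in B1 and B2, a log2 fold change of 1.94 ± 0.28 with an adjusted p of 0.00525. Gstm7 (chr3:107926334-107931817) of the same class went from 15.2 and 10.8 to 46.3 and 35.2 RPKM, a log2 fold change of 1.58 ± 0.28. Gm4952 (chr19:12599974-12628251), a glycine N-acyltransferase-like gene, had 12.96 and 13.2 RPKM in the M libraries and 41.4 and 37.2 in the B libraries, a log2 fold change of 1.52 ± 0.24. In each of these 3 genes both B libraries stood above both M libraries. The remaining 3 encode glucuronosyltransferases and a relative. Ugt1a1, the enzyme that conjugates bilirubin, had 5.39 and 8.67 RPKM in the M libraries and 68.5 and 22.7 in B1 and B2, with the larger part of its log2 fold change of 2.37 ± 0.45 in B1. Ugt1a6a shares its last exons with Ugt1a1, so reads there cannot be assigned to either gene, and it had 0.675 and 1.82 RPKM in the M and 15.4 and 5.01 in the B libraries. Ugt3a1 went from 17.4 and 21.7 to 52.5 and 46.4 RPKM, a log2 fold change of 1.30 ± 0.25. Gsta3, an abundant transferase of the alpha class, had 455 and 449 RPKM in the M and 1262 and 914 in the B libraries, a log2 fold change of 1.25 ± 0.29 with an adjusted p of 0.015 that did not pass, though it did in 5 of the 14 alternatives, a common median and the fit without B2 among them. Over the fits without 1 library, 6 (without B1) to 16 (without B2) members were higher, and 1 was lower in each fit. The calls of Ugt3a1 without M1 (adjusted p = 0.0647), Gstm7 without M2 (adjusted p = 0.0183) and Ugt1a6a without B1 (adjusted p = 0.0164) were lost.

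Transporters of drugs and bile acids and the antioxidant genes held calls in both directions. Of 26 transporters tested, 2 (7.69%) rose and 2 (7.69%) fell, against 2.30% higher and 6.56% lower among all genes, so that the lower share was close to that of all genes. Their median log2 fold change was -0.04 (0.23 on a common median and 0.19 relative to genes of the same length). Without B2, 4 were lower. Slc10a1, the sodium-dependent carrier that brings bile acids from the blood into the hepatocyte, rose from 77.5 and 101 to 426 and 214 RPKM, a log2 fold change of 1.76 ± 0.35 with an adjusted p of 0.00882. Slc47a1, which exports organic cations, fell from 209 and 194 to 62.2 and 70.6 RPKM, a log2 fold change of -1.59 ± 0.25, and Slco1a4, an uptake carrier of organic anions, fell from 33.3 and 30.04 to 13.8 and 5.34, a log2 fold change of -1.75 ± 0.37 whose call was lost on a common median (adjusted p = 0.0168). Each of these 3 genes had groups that did not overlap. Among 37 tested targets of NRF2 and antioxidant enzymes, 2 (5.41%) rose and 1 (2.70%) fell, with a median of 0.34. Among the higher genes is Me1, malic enzyme, which belongs to the fatty acid synthesis genes set aside here. Without B1 or B2, 4 were higher, and without M1, 1 was. Prdx1 (chr4:116685544-116700822), a peroxiredoxin that reduces hydrogen peroxide, had 143 and 168 RPKM in the M and 544 and 399 in the B libraries, a log2 fold change of 1.58 ± 0.28, which passed in all fits but that without M1 (adjusted p = 0.0238) and that with no filter on low genes. Nfe2l2, which encodes NRF2 itself, moved the other way, from 93.9 and 110 to 37.2 and 38.98 RPKM, a log2 fold change of -1.39 ± 0.25 whose call was lost without M2 (adjusted p = 0.0276) and on a common median (adjusted p = 0.0165). The core of the antioxidant response element to which NRF2 binds (TGACNNNGC, either strand) was searched in RefSeq promoter windows (GRCm38.p6) of 250 bases before to 50 after the transcription start. It occurred in a window of 13.99% of the 27025 genes that have one, and among the 19 called enzymes of the first and second phase with a window, in the window of Akr1c19 and in 1 of the 2 windows of Gstm7.

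Among the plasma proteins, albumin and transthyretin overlapped between the groups, and transferrin and fetuin-A were higher in both B libraries without passing. Alb, serum albumin, had 21470 and 24880 RPKM in M1 and M2 and 31910 and 24180 in B1 and B2, which overlap, a log2 fold change of 0.27 ± 0.38 (adjusted p = 0.634). Ttr, the carrier of thyroxine and retinol, had 5755 and 6753 RPKM in the M and 6425 and 8061 in the B libraries and also overlapped. Trf, transferrin, had 1901 and 2281 RPKM in the M and 4878 and 4094 in the B libraries, and Ahsg, fetuin-A, had 1610 and 2084 RPKM in the M and 3219 and 3831 in the B libraries. In neither did the groups overlap, and neither passed (log2 fold changes of 1.10 ± 0.32 and 0.94 ± 0.32, adjusted p = 0.0307 and 0.0532), though Trf did without B2. Of 56 tested carriers and hormones, none rose and 2 (3.57%) fell, against 2.30% higher and 6.56% lower among all genes, with a median of 0.07. Without B2, 4 were higher and 7 lower. Angptl8 (chr9:21835510-21837347), a secreted regulator of lipoprotein lipase, fell from 154 and 143 to 39.5 and 39 RPKM, a log2 fold change of -1.89 ± 0.25 with an adjusted p of 0.00523, and kept its call in all 14 alternatives. Igf1 (chr10:87858265-87937042), the growth factor that the liver secretes under growth hormone, fell from 198 and 158 to 71.2 and 73.7 RPKM, a log2 fold change of -1.28 ± 0.26. Its call was lost without M1 (adjusted p = 0.0839), without M2 (adjusted p = 0.0135) and on a common median (adjusted p = 0.027).

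Major urinary proteins, small pheromone carriers that the liver secretes into the blood and the kidney passes into urine, had a median log2 fold change of 1.09 over 20 tested genes. Of these, 3 (15.0%) rose and none fell, against 2.30% higher and 6.56% lower among all genes, and 17 lay above 0. Without M2, 10 were higher, and over the fits without 1 library the median ranged from 0.65 (without M1) to 1.60 (without M2). Together the genes held 4.51% and 6.50% of the summed RPKM in M1 and M2 and 7.34% and 7.83% in B1 and B2. Mup15 (chr4:61435790-61439743) had 1.83 and 5.52 RPKM in the M and 63.5 and 61.1 in the B libraries, a log2 fold change of 3.88 ± 0.36. Mup13 (chr4:61224307-61228286) had 90.5 and 267 RPKM in the M and 869 and 709 in the B libraries, a log2 fold change of 2.33 ± 0.44 that lost its call without M1 (adjusted p = 0.0189) or without B1 (adjusted p = 0.0125). Gm21320, which RefSeq names Mup22, had 2.16 and 2.65 RPKM in the M and 20.3 and 9.82 in the B libraries. M1 lay well below M2 in Mup13 and Mup15, and the copies of this cluster share most of their sequence, so the level of single genes is uncertain. Most major urinary proteins are more abundant in males. Of 22 tested male-biased liver genes, which include some of them, 3 (13.6%) rose and 1 (4.55%) fell with a median of 1.08, and without M2 10 were higher. Those that rose were Mup15, counted above, and Cyp4a12a and Cyp4a12b, fatty acid hydroxylases that belong to the fatty acid oxidation genes set aside here. Selenbp2 was the member that fell, from 89.5 and 100.3 to 26.2 and 43.5 RPKM, a log2 fold change of -1.46 ± 0.29 that lost its call without M2 (adjusted p = 0.0165), without B1 (adjusted p = 0.0126) and on a common median (adjusted p = 0.0244). Of 13 tested female-biased genes, Cyp2b13 was the 1 call, and their median was -0.45 (-0.17 on a common median). Without M2, 5 of them were lower, and without M1, 2 were higher and 1 was lower.

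Acute phase proteins, whose synthesis rises in inflammation, were listed together with receptors and regulators of that response. The list held calls in both directions, with counts that varied by library. Of 31 tested members, 2 (6.45%) rose and 2 (6.45%) fell, against 2.30% higher and 6.56% lower among all genes. The lower share was thus close to that of all genes, and the median log2 fold change of -0.22 turned to 0.06 on a common median. Without M1, M2, B1 or B2, 0, 0, 2 or 5 were higher and 5, 6, 3 or 8 lower, and at an adjusted p under 0.05, 4 were higher and 9 lower. At that adjusted p, 5.01% of all genes were higher and 12.7% lower. Crp, C-reactive protein, had 47.8 and 50.4 RPKM in M1 and M2 and 148 and 107 in B1 and B2, a log2 fold change of 1.34 ± 0.27. Saa2, a serum amyloid A, had 17.99 and 19.8 RPKM in the M and 39.1 and 52.6 in the B libraries, a log2 fold change of 1.22 ± 0.26. Both calls were lost without M1 or M2 (adjusted p = 0.0187 to 0.0634), and that of Saa2 also without B2 (adjusted p = 0.0107). Il1r1 (chr1:40225080-40317257), the receptor through which interleukin-1 acts on hepatocytes, had 89.1 and 71.6 RPKM in the M and 5.27 and 11.6 in the B libraries. Its log2 fold change of -3.18 ± 0.34 had an adjusted p of 0.00493 and passed in all 14 alternatives. Orm3, an orosomucoid, fell from 65.7 and 21.9 to 5.22 and 6.15 RPKM, a log2 fold change of -2.55 ± 0.43, with M1 far above M2. Saa1 (91.1 and 49.5 against 66.4 and 86.7 RPKM) and Hp, haptoglobin (4764 and 4723 against 2579 and 4597), did not pass, and the libraries of Saa1 overlapped. The metallothioneins Mt1 and Mt2, named after their values were seen, spread widely within groups. Mt1 had 1348 and 476 RPKM in M1 and M2 and 29.6 and 285 in B1 and B2, and Mt2 had 682 and 164 RPKM in the M and 5.58 and 82.4 in the B libraries, and neither passed (adjusted p = 0.0259 and 0.0203).

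Complement, coagulation and protease inhibitor genes held 2 calls, a count that varied with the settings. Of 37 tested complement genes 1 (2.70%) rose and 1 (2.70%) fell, against 2.30% higher and 6.56% lower among all genes, and none of 33 coagulation and 14 serpin A genes passed, with medians of 0.29, 0.27 and 0.62. On a common median 6 complement, 2 coagulation and 2 serpin A genes were higher and none lower. Among all 10687 genes 540 were higher and 291 lower there. Without B2, 5, 5 and 2 were higher, with 2 complement genes lower, and without M1 none of the 3 lists held a higher call. Mbl2 (chr19:30232942-30239687), the mannose-binding lectin that starts the lectin pathway of complement, rose from 154 and 179 to 402 and 428 RPKM, a log2 fold change of 1.31 ± 0.26. Cd59a, which protects cells from the membrane attack complex, fell from 88.9 and 96.1 to 44.9 and 34.8 RPKM, a log2 fold change of -1.20 ± 0.26 that did not reach 1 on a common median (-0.93). Both calls were lost without M1 and without M2 (adjusted p = 0.0208 to 0.0724), and that of Cd59a also without B2 (adjusted p = 0.00926). C3, the central component of complement, had 710.5 and 517 RPKM in the M and 619.7 and 608 in the B libraries, with both B values between the M values.

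Enzymes of amino acid breakdown passed singly, in both directions. Of 80 tested genes of amino acid breakdown and the urea cycle, 3 (3.75%) rose and 3 (3.75%) fell, against 2.30% higher and 6.56% lower among all genes. The higher share was little above that of all genes and the lower share below it, and the median was 0.22. The counts were 10 higher and 5 lower without B2, 3 and 1 without M1, and 8 and 0 on a common median. Those that rose act on the nicotinate end of tryptophan breakdown and on tetrahydrobiopterin. Qprt (chr7:127107114-127122226), quinolinate phosphoribosyltransferase, had 20.4 and 28.4 RPKM in M1 and M2 and 147 and 86.3 in B1 and B2, a log2 fold change of 2.18 ± 0.31 with an adjusted p of 0.00525, and it passed in all 14 alternatives. Qdpr, which regenerates tetrahydrobiopterin for phenylalanine hydroxylase, rose from 105 and 91.8 to 415 and 259.9 RPKM, a log2 fold change of 1.73 ± 0.30. Gch1, which makes the first intermediate of this cofactor, rose from 17.5 and 18.4 to 56.6 and 42.5, a log2 fold change of 1.40 ± 0.26 that did not pass without M1 (adjusted p = 0.0238) or M2 (adjusted p = 0.0112). Those that fell included the mitochondrial aminotransferase of branched-chain amino acids, Bcat2, from 36.5 and 33.2 to 9.74 and 15.7 RPKM (log2 fold change -1.42 ± 0.28). The E1 beta subunit of the dehydrogenase that follows it, Bckdhb (chr9:83925145-84124240), fell from 188 and 187 to 67.6 and 67.6 RPKM, a log2 fold change of -1.46 ± 0.25. Afmid, a formamidase of the kynurenine pathway, fell from 130 and 149 to 49.1 and 61.4, a log2 fold change of -1.33 ± 0.26. These 3 calls were lost on a common median (adjusted p = 0.0136 to 0.0246) and each was lost without M1 (adjusted p = 0.0174 to 0.0245). Cps1, which commits ammonia to the urea cycle, had 369 and 156 RPKM in M1 and M2 and 393 and 156 in B1 and B2, with M1 and B1 far above M2 and B2 and almost equal group means (log2 fold change 0.05 ± 0.48).

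Enzymes that use betaine itself did not pass the test. Bhmt had 1762 and 741 RPKM in M1 and M2 and 1280 and 1444 in B1 and B2, so that both B values lay between the M values (log2 fold change 0.25 ± 0.40, adjusted p = 0.671). Of the 33 tested genes of the methionine cycle, betaine and choline, 1 (3.03%, near the 2.30% of all genes) rose and none fell, with a median of 0.20. On a common median 4 were higher, and without B2, 2 were higher and 1 lower. The called gene was Gnmt (chr17:46725664-46729168), glycine N-methyltransferase, which uses S-adenosylmethionine to methylate glycine to sarcosine, with 517 and 342 RPKM in the M and 1792 and 1016 in the B libraries. Its log2 fold change of 1.68 ± 0.36 had an adjusted p of 0.0107 and was lost without M2 (adjusted p = 0.0389) or B1 (adjusted p = 0.0141). The other enzymes between betaine and glycine, named here after their values were seen, did not pass, with Dmgdh at 132 and 93.2 RPKM in the M and 174 and 131 in the B libraries and Sardh at 144 and 150.1 RPKM in the M and 221 and 209 in the B libraries. Pemt, which methylates phosphatidylethanolamine to phosphatidylcholine, had 180.2 and 234 RPKM in the M and 432 and 447 in the B libraries, groups that did not overlap, and an adjusted p of 0.0185, and it did not pass. The 16 tested genes of amino acid synthesis and of the ATF4 response held no call, with a median of -0.44, but 5 lower calls without B2.

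Genes of glycolysis, gluconeogenesis and glycogen held more higher than lower calls. Of 42 tested members 9 (21.4%) rose and 1 (2.38%) fell, against 2.30% higher and 6.56% lower among all genes, and the median was 0.41 (0.68 on a common median and 0.55 relative to genes of the same length). Fbp1 (chr13:62864753-62888282), fructose-1,6-bisphosphatase of gluconeogenesis, rose from 80.9 and 91.95 to 837 and 435 RPKM, a log2 fold change of 2.79 ± 0.34 with an adjusted p of 0.0051. Tpi1, triosephosphate isomerase, rose from 72.6 and 67.9 to 282 and 225, a log2 fold change of 1.83 ± 0.26. Ldha, the A subunit of lactate dehydrogenase, rose from 195 and 169.5 to 659 and 606 RPKM, and Pgk1, phosphoglycerate kinase, from 40.1 and 38.97 to 184 and 105. Gbe1, the glycogen branching enzyme, had 7.03 and 6.28 RPKM in the M libraries and 55.1 and 18.2 in B1 and B2, with B1 highest. Eno1, Pgm2, Pgam1 and Aldoc were the others that rose. Eno3, the muscle isoform of enolase, fell from 24.7 and 20.3 to 3.78 and 8.07 RPKM, a log2 fold change of -1.83 ± 0.33. No library overlapped between the groups in any of these 6 genes given with values. The count of higher genes ranged from 8 to 12 without single libraries, with 3 lower genes without M2, and Pgm2, Pgam1 and Aldoc lost their calls in 1 or more of these fits (adjusted p = 0.0165 to 0.0389).

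Chaperone genes had medians of 0.30 over 29 genes of the endoplasmic reticulum and its unfolded protein response and 0.39 over 32 heat shock genes. In the first list 2 (6.90%) rose and 1 (3.45%) fell, and in the second 1 (3.12%) rose and 1 (3.12%) fell, against 2.30% higher and 6.56% lower among all genes. The heat shock share of higher genes was near that of all genes. Without B2, 5 of the first and 3 of the second list were higher, and without B1 none of the first and without M1 none of the second. Syvn1 (chr19:6046576-6053712), the ubiquitin ligase that disposes of misfolded proteins of the endoplasmic reticulum, fell from 230.2 and 176 to 36.9 and 57.7 RPKM, a log2 fold change of -2.10 ± 0.30 that passed in all 14 alternatives. Ern1, the stress sensor IRE1, rose from a low level of 1.12 and 1.11 RPKM to 6.37 and 4.03, a log2 fold change of 1.53 ± 0.27 lost without B1 (adjusted p = 0.0146). Pdia6, a disulfide isomerase, rose from 50.4 and 76.9 to 169 and 149.7, a log2 fold change of 1.34 ± 0.28 lost without M1 (adjusted p = 0.116) or B1 (adjusted p = 0.0151). Hsf1, the factor that induces heat shock genes, fell from 29.1 and 26.7 to 7.13 and 11.3 RPKM (log2 fold change -1.53 ± 0.28, lost on a common median with adjusted p = 0.0153). Hspa1b, an inducible Hsp70 with a near-identical copy beside it, had 8.33 and 18.2 RPKM in the M and 44 and 39.9 in the B libraries and lost its call without M1 (adjusted p = 0.0619) or B1 (adjusted p = 0.0151).

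Transcription factors of the hepatocyte, like all genes tested, held more lower than higher calls. Of 35 tested, 5 (14.3%) fell and 1 (2.86%) rose, against 6.56% and 2.30% of all genes, 29 lay below 0, and the median was -0.77 (-0.49 on a common median and -0.47 relative to genes of the same length). Nr1h4 (chr10:89454234-89533585), the bile acid receptor FXR, fell from 224 and 176 to 47.2 and 63.6 RPKM, a log2 fold change of -1.84 ± 0.28 with an adjusted p of 0.00526 that passed in all 14 alternatives. Prox1, a homeobox factor of liver development, fell from 11.4 and 12.7 to 2.68 and 4.42, a log2 fold change of -1.55 ± 0.28. Tcf7l2, a factor of the Wnt pathway, fell from 6.60 and 8.70 to 2.55 and 2.04 RPKM, a log2 fold change of -1.39 ± 0.26. Bcl6, a repressor with higher levels in male liver, fell from 12.8 and 24.9 to 4.52 and 6.16, and Ahr, the aryl hydrocarbon receptor that induces the first P450 family, fell from 16.9 and 11.7 to 3.77 and 5.95 RPKM. Onecut1 (chr9:74861921-74891781), also called HNF6, had 1.13 and 0.464 RPKM in M1 and M2 and 25.3 and 7.01 in B1 and B2, a log2 fold change of 3.04 ± 0.47 with an adjusted p of 0.00526. It met the filter of a mean of 1 RPKM only through the B libraries, which favours a rise. None of these 6 had overlapping groups, which the rule required of all but Bcl6. Without single libraries, Ahr, Bcl6 and Tcf7l2 lost their calls (adjusted p = 0.0188 to 0.0648). On a common median Onecut1 and Nr1h4 were the calls that remained (adjusted p = 0.0134 to 0.0249 for the other 4), and between 4 (without B1) and 10 (without B2) members were lower in the fits without 1 library. Markers of the pericentral and the periportal zone of the lobule had medians of -0.10 over 26 and -0.05 over 23 genes. Both were above 0 on a common median and relative to genes of the same length (0.11 and 0.08). The periportal median was -0.41 without M2 and 0.21 without B2.

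Clock genes, which keep the daily cycle of liver metabolism, included 4 that fell of 20 tested (20.0%, against 6.56% of all genes) and none that rose. Without M1 the count of lower genes was 2, and without any other 1 library it was 5. The median was -0.66 (-0.39 on a common median, with 2 calls left, and -0.47 relative to genes of the same length), and 18 of 20 genes lay below 0. The hour at which livers were taken is not given in the sources used here. Per2 (chr1:91415982-91459324), a repressor in the core loop of the clock, fell from 73.4 and 78.6 to 17.3 and 24.2 RPKM, a log2 fold change of -1.84 ± 0.26 with an adjusted p of 0.00525. Ciart (chr3:95878503-95882251), a further repressor of the loop, fell from 139.9 and 80.8 to 16.3 and 32.2 RPKM, a log2 fold change of -2.16 ± 0.37. Per1 fell from 59.5 and 59.9 to 17.1 and 26.9, and Usp2, a ubiquitin-specific protease under clock control, from 45.5 and 40 to 14.1 and 18.3 RPKM. In all 4 genes both B libraries lay below both M libraries. Per1 and Usp2 lost their calls on a common median (adjusted p = 0.0219 and 0.0198), Per1 without M1 or M2 (adjusted p = 0.0156 and 0.0116) and Usp2 without M1 (adjusted p = 0.0377). Dbp and Nr1d1, output genes of the same loop, did not pass: Dbp had 28.7 and 84.1 RPKM in M1 and M2 and 61.3 and 57.8 in B1 and B2, and Nr1d1 had 14.6 and 26.1 RPKM in the M and 16.9 and 20.1 in the B libraries, with overlapping groups in both. These 2 genes were named after their values were seen.

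The clock activators CLOCK and BMAL1 bind the E-box CACGTG, whose reverse complement is the same. Of the 4 clock genes that fell, 3 had a RefSeq promoter window (GRCm38.p6), and those of Ciart and Per1 held an E-box in at least 1 window, against 8.09% of all 27025 genes with a window, while a window of Usp2 held none. The windows of Ciart (chr3:95882179-95882478, minus strand) and Per1 (chr11:69098699-69098998, plus strand) are shown because they carry the motif, with each E-box in capitals. The 3 in Ciart start 116, 58 and 44 bases before the transcription start, and the 1 in Per1 starts 166 bases before it. A second window of Per1 has no E-box.

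Ciart: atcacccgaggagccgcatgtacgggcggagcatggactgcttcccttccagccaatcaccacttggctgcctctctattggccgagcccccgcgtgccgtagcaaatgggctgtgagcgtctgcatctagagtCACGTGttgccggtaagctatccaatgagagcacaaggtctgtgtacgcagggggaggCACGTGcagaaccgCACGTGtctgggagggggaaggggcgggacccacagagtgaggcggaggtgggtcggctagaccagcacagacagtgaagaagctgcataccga

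Per1: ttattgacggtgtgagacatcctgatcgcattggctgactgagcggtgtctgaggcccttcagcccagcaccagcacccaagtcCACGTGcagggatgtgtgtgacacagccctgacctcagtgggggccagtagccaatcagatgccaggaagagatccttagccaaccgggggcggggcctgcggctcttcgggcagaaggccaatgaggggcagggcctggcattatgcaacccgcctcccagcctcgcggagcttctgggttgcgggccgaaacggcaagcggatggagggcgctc

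Genes of the interferon response and of class I antigen presentation included 5 that fell of 51 tested (9.80%, against 6.56% of all genes), and none rose, where 2.30% of all genes did. Without M2 the count of lower genes was 3. The median of the list was -0.12 (0.16 on a common median and 0.07 without M2), and 19 of its genes lay above 0. The genes that fell include 2 of the 3 subunits of the factor that type I interferon activates. Stat2 (chr10:128270559-128292849) fell from 73.7 and 71.1 RPKM in M1 and M2 to 14.9 and 22.02 in B1 and B2, a log2 fold change of -1.94 ± 0.27 with an adjusted p of 0.00523, and passed in all 14 alternatives. Its partner Irf9 (chr14:55603571-55610030) fell from 30.7 and 34.4 to 11.8 and 10.7 RPKM, a log2 fold change of -1.45 ± 0.24. The other 3 are targets of this factor. Oas2, an antiviral oligoadenylate synthetase with several close copies, fell from 8.97 and 8.16 to 1.98 and 2.68 RPKM, a log2 fold change of -1.53 ± 0.25. Mx2, an antiviral GTPase that the annotation counts as a pseudogene in this strain, fell from 5.24 and 7.02 to 1.23 and 1.67, a log2 fold change of -1.54 ± 0.26. Ifit1 (chr19:34640871-34650009), which binds viral RNA, fell from 5.92 and 10.4 to 2.44 and 2.10 RPKM, a log2 fold change of -1.45 ± 0.29. No library overlapped between the groups in these 5 genes. The call of Ifit1 was lost without M2 (adjusted p = 0.0419), without B2 (adjusted p = 0.00973) and on a common median (adjusted p = 0.0192), and that of Irf9 without M2 (adjusted p = 0.0154). The 8 tested genes of class II antigen presentation held no call (median 0.43), with Cd74, their invariant chain, at 34.4 and 54.5 RPKM in the M and 64.5 and 61.04 in the B libraries.

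The core of the interferon-stimulated response element, TTTC and again TTTC with 2 bases of any kind between them, on either strand, was present in a RefSeq window of 3.99% of the 27025 genes that have one. Of the 5 genes, 3 had windows, of which those of Stat2 (chr10:128270248-128270547, plus strand) and Ifit1 (chr19:34640639-34640938, plus strand) held it and those of Irf9 did not. Both are shown with the match in capitals, because the 1 gene encodes a subunit of the factor that binds this element and the other is a target. The match in Stat2 starts 222 bases before the transcription start, and those in Ifit1 start 104 and 85 bases before it.

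Stat2: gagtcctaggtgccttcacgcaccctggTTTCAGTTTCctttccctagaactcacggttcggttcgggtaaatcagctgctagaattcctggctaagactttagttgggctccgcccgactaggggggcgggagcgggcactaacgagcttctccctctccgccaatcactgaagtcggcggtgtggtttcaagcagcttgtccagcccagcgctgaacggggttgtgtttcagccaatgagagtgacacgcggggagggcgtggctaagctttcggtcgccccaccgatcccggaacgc

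Ifit1: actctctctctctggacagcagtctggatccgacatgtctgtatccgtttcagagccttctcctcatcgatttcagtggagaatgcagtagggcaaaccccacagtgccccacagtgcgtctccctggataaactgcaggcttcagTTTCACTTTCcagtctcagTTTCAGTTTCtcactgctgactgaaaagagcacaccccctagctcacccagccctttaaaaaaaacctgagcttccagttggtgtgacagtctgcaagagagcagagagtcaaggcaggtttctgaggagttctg

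**Figure D3:**
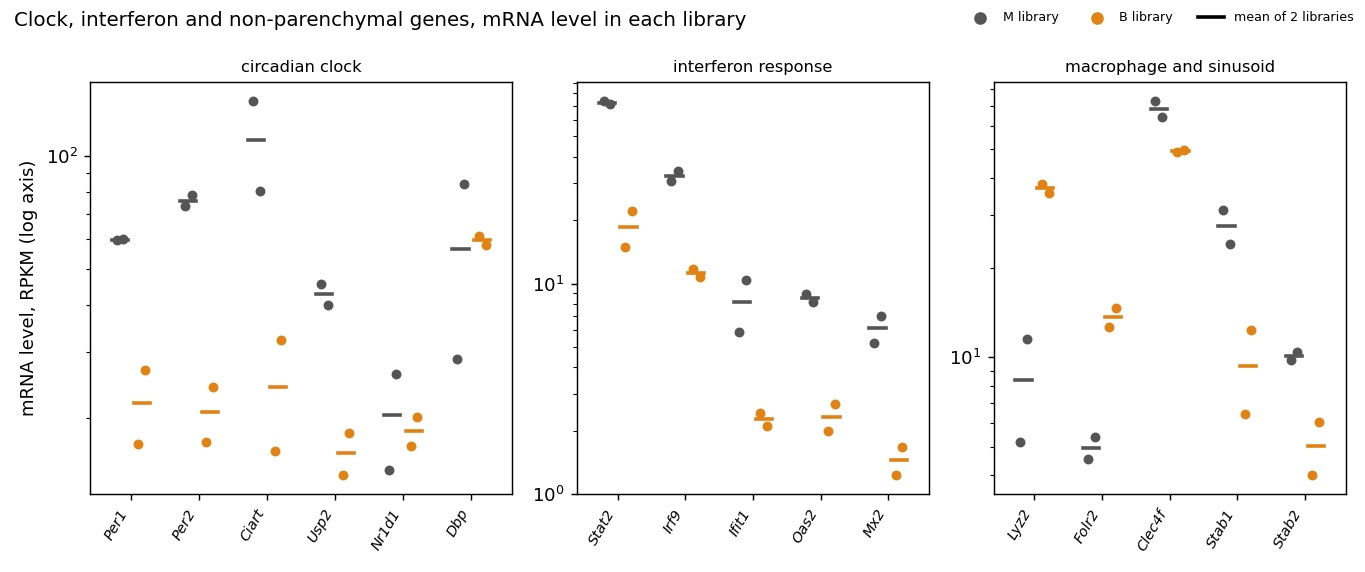
RPKM (log axis) of clock, interferon, macrophage and sinusoidal genes in each M (grey) and B (orange) library, with the mean of the 2 libraries as a bar. The B libraries of Per1, Per2, Ciart, Usp2 and the 5 interferon genes lie below both M libraries, Dbp and Nr1d1 overlap, and Lyz2 and Folr2 are higher in B.

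Marker genes of other liver cells held few calls, and in bulk liver fewer cells of a type and less RNA per cell cannot be told apart. Of 33 tested markers of Kupffer cells and macrophages, 2 (6.06%) rose and none fell, against 2.30% higher and 6.56% lower among all genes, with a median of 0.20 (-0.08 to 0.36 over the fits without 1 library). On a common median 5 were higher, without B2 4 and without M1 1. Lyz2 (chr10:117277331-117282321), lysozyme of macrophages and other myeloid cells, had 5.19 and 11.5 RPKM in the M and 38.3 and 35.6 in the B libraries, a log2 fold change of 2.11 ± 0.33 with an adjusted p of 0.00526. Folr2, a folate receptor of resident macrophages, had 4.52 and 5.40 RPKM in the M and 12.6 and 14.6 in the B libraries, a log2 fold change of 1.29 ± 0.25 lost without M1 (adjusted p = 0.0547) or M2 (adjusted p = 0.0135). The defining Kupffer gene Clec4f was lower in both B libraries and did not pass, with 72.6 and 64.4 RPKM in the M and 48.9 and 49.6 in the B libraries, and Adgre1, which encodes F4/80, was low and overlapped (1.06 and 0.678 against 2.23 and 0.682 RPKM). The summed level of all 37 listed markers was 398 and 511 RPKM in M1 and M2 and 574 and 580 in B1 and B2. Of 7 tested neutrophil genes 1 (14.3%, where 6.56% of all genes were lower) fell, the chemokine receptor Cxcr2, from 2.51 and 2.17 to 0.569 and 0.509 RPKM. Cxcr2 met the filter of a mean of 1 RPKM only through the M libraries, which favours a fall. All 7 tested neutrophil genes lay below 0, with a median of -1.13 (-0.85 on a common median), and the summed level of the 17 listed genes was 73.6 and 88.7 RPKM in the M and 16.2 and 23.5 in the B libraries. The call of Cxcr2 was lost in 3 of the 4 fits without 1 library (adjusted p = 0.0154 to 0.0223), and on a common median its fold change of -0.84 was below the threshold. Without M1, 3 neutrophil genes were lower, and without B1 or B2 none. S100a8, named after its values were seen, had 3.72 and 32.4 RPKM in M1 and M2 and 1.47 and 1.69 in B1 and B2, so that M2 held most of the difference. The 5 tested lymphocyte genes held no call, with a median of -0.57.

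Stellate cell and fibroblast genes gave no call among 30 tested and had a median of 0.02 (0.31 relative to genes of the same length). Col3a1, a fibrillar collagen, had 4.15 and 3.45 RPKM in the M and 3.25 and 4.04 in the B libraries, and Col1a1 was below the filter at 0.752, 0.442, 0.785 and 1.74 RPKM in M1, M2, B1 and B2. Of 32 endothelial genes 1 (3.12%, where 6.56% of all genes were lower) fell and none rose. Their median was -0.34 (-0.06 on a common median and -0.12 relative to genes of the same length). Without B2, 2 were lower. The called gene was the scavenger receptor Stab1 (chr14:31139013-31168641) of sinusoidal endothelium, from 31.2 and 24.1 to 6.41 and 12.3 RPKM, a log2 fold change of -1.52 ± 0.32. The call was lost without M1 (adjusted p = 0.0267), without B1 (adjusted p = 0.017) and on a common median (adjusted p = 0.0243). Its relative Stab2 had 9.76 and 10.4 RPKM in the M and 4.00 and 6.02 in the B libraries, groups that did not overlap, and did not pass (adjusted p = 0.0341). Bile duct and proliferation genes held no call among 6 and 13 tested, though 4 proliferation genes were higher on a common median, where 540 of all 10687 genes were.

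Globin genes were highest in 1 library. Of 5 tested genes of red blood cells 1 (20.0%, where 2.30% of all genes were higher) passed. Hbb-bs, a beta globin with a near-identical neighbour, rose from 75.2 and 67.9 RPKM in M1 and M2 to 265 and 643 in B1 and B2, a log2 fold change of 2.51 ± 0.39. Without B1, 3 of these genes were higher. The summed level of the 11 listed genes was 675, 524, 739 and 2250 RPKM in M1, M2, B1 and B2, so that B2 stood apart, and its part in the other results was not tested. Of 19 pancreatic acinar genes 10 were at 0 in all libraries and 2 were tested, too few to set beside the 6.56% of all genes that were lower. Of these, Ctrl, a chymotrypsin-like protease, fell from 3.48 and 3.52 to 0.300 and 0.249 RPKM. Ctrl met the filter of a mean of 1 RPKM only through the M libraries. Of 12 skeletal muscle genes 7 were at 0 in all libraries, and the 6 adipocyte genes tested held no call. As a check of the tissue label, the 13 hepatocyte markers were all tested, summed to between 51040 and 62290 RPKM in each library and held no call.

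The listed nuclear and well known long noncoding RNAs were called in the lower direction. Of 32 tested members of this list 10 (31.2%) fell and none rose, against 6.56% lower among all genes and 10.7% among the noncoding RNA genes as a class, 30 lay below 0, and the median was -1.04 (-0.77 on a common median with 5 calls, and -0.86 relative to genes of the same length). The noncoding RNA genes as a class held 0.601% and 0.659% of the summed RPKM in M1 and M2 and 0.343% and 0.376% in B1 and B2, and the pseudogenes 0.565% and 0.553% against 0.182% and 0.265%. These libraries were made from polyadenylated RNA, so RNAs without a tail may be measured only in part.

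Neat1 (chr19:5824708-5845478), the scaffold of nuclear paraspeckles, had 51.2 and 64.8 RPKM in M1 and M2 and 20.6 and 18.7 in B1 and B2, a log2 fold change of -1.51 ± 0.25 with an adjusted p of 0.00583 that was lost without M2 (adjusted p = 0.0189). Malat1 (chr19:5795690-5802672), the RNA of nuclear speckles encoded next to it, had 76.7 and 88.9 RPKM in the M and 91.6 and 71.05 in the B libraries, overlapping groups and a log2 fold change of -0.03 ± 0.26. Mir22hg (chr11:75461539-75466676), the host transcript of miR-22, fell from 74.8 and 59.05 to 17.6 and 13.6 RPKM, a log2 fold change of -2.04 ± 0.26 that passed in all 14 alternatives. Host genes of small nucleolar RNAs, the guides that lie in their introns, gave 6 of the calls under their Snhg names or as 1810032O08Rik, which RefSeq names Snhg16. The annotation counts Snhg11 as protein-coding, and it stands in that class in the shares by class. Snhg3 fell from 182 and 87.7 to 13.1 and 33.2 RPKM with M1 and B2 the higher library of each group, a log2 fold change of -2.54 ± 0.45. Snhg20 fell from 156 and 117 to 22.6 and 48.3, and Snhg1, Snhg11, Snhg12 and 1810032O08Rik fell with log2 fold changes of -1.41 ± 0.25, -1.30 ± 0.24, -1.37 ± 0.27 and -1.39 ± 0.25. Tug1, a conserved nuclear RNA, fell from 10.6 and 10.2 to 4.23 and 3.83 RPKM and its fold change was under the threshold on a common median (-0.91), and its call was lost in 3 of the fits without 1 library (adjusted p = 0.00772 to 0.0588). Those of Snhg11 and Snhg12 were lost without M1, without M2 and on a common median (adjusted p = 0.0118 to 0.0357), and those of Snhg1 and 1810032O08Rik without M1 (adjusted p = 0.0291 and 0.0436). The call of 1810032O08Rik was also lost on a common median (adjusted p = 0.0137). Gm10768, a long noncoding RNA, fell from 211 and 252 to 72.95 and 87.8, a log2 fold change of -1.51 ± 0.26 lost without M2 (adjusted p = 0.0186) and on a common median (adjusted p = 0.015). Between 5 (without M2) and 15 (without B2) members were lower in the fits without 1 library. The counting was not stated to use strand, so reads of an antisense partner cannot be told apart.

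Across all noncoding RNAs and pseudogenes outside the lists, a few of the lower calls with the smallest p are given here. Gm17066 (chr14:105109390-105114676) fell from 15.98 and 13.6 to 2.76 and 1.78 RPKM, a log2 fold change of -2.28 ± 0.27 that passed in all 14 alternatives. Olfr1372-ps1 (chr11:52154722-52168159), annotated as a pseudogene of an olfactory receptor, fell from 3.83 and 3.30 to 0.150 and 0.375 RPKM. It met the filter of a mean of 1 RPKM only through the M libraries, which favours a fall. Cxcl11, an interferon-induced chemokine gene that the annotation counts as a pseudogene in this strain, fell from 6.04 and 6.49 to 1.02 and 1.07, a log2 fold change of -1.83 ± 0.24. Higher calls were rarer, as they were among all genes, of which 2.30% were higher and 6.56% lower. The higher share was 0.383% of the noncoding RNA genes and 1.49% of the pseudogenes, the latter near that of all genes. Of 261 noncoding RNA genes tested 1 was higher, 1810008I18Rik (chr7:65803111-65806449), with 16.5 and 18.9 RPKM in the M and 107 and 43.9 in the B libraries, and of 67 pseudogenes 1 was higher, the class I locus H2-Q5, with 10.4 and 17.8 RPKM in the M and 45.8 and 35.2 in the B libraries, whose call was lost without M1 (adjusted p = 0.0694) or B1 (adjusted p = 0.0167).

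**Figure D4:**
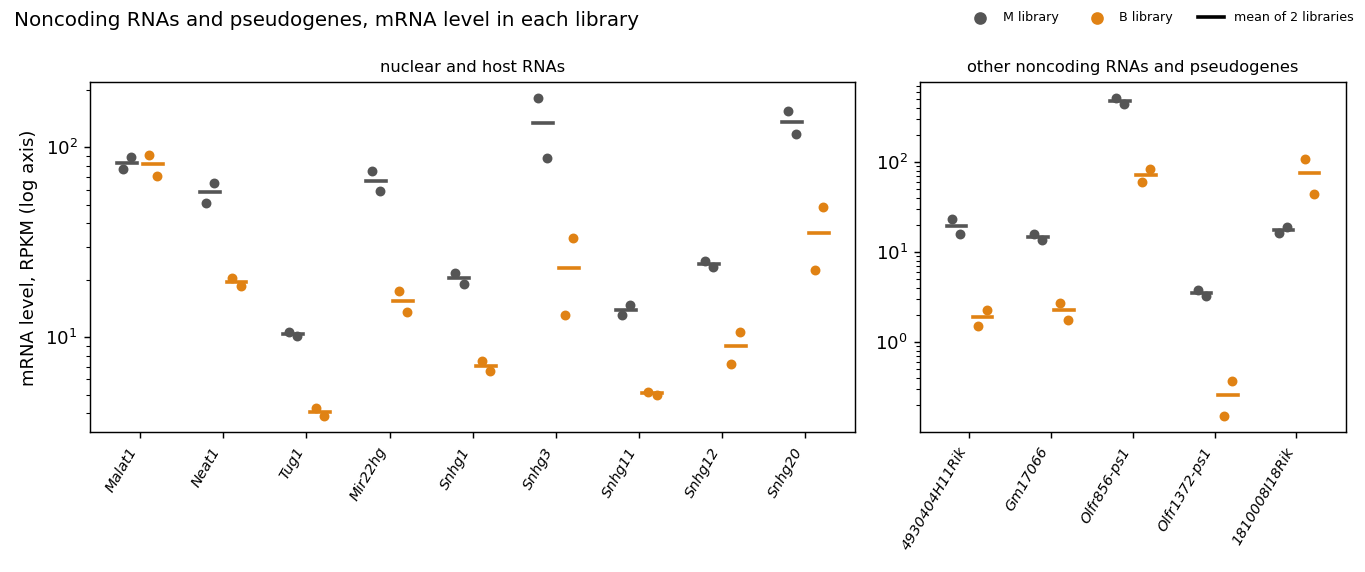
RPKM (log axis) of nuclear and host RNAs (left) and of other noncoding RNAs and pseudogenes (right) in each M (grey) and B (orange) library, with the mean of the 2 libraries as a bar. Malat1 overlaps between the groups, 1810008I18Rik is higher in B, and all others drawn are lower in both B libraries.

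Protein-coding genes in none of the lists gave further calls. Among the higher ones with the smallest p, Plin2 (chr4:86648386-86670060), the coat protein of lipid droplets, had 55.4 and 67.6 RPKM in the M and 374 and 242 in the B libraries, a log2 fold change of 2.28 ± 0.29 with an adjusted p of 0.00523. Suclg1, a subunit of succinyl-CoA synthetase, rose from 23.2 and 43.4 to 200.5 and 161 RPKM, a log2 fold change of 2.46 ± 0.32. Glrx5, a glutaredoxin of iron-sulfur cluster assembly, rose from 51.1 and 47.8 to 176 and 184, and Cops6, a subunit of the COP9 signalosome, from 23.4 and 25.7 to 102 and 86.7 RPKM. Among the lower ones, Ccnl1 (chr3:65946151-65958249), cyclin L1, fell from 100.1 and 71.6 to 16.3 and 14.7 RPKM, a log2 fold change of -2.38 ± 0.27 with an adjusted p of 0.00493. Txlng, taxilin gamma, fell from 52.95 and 54.5 to 7.54 and 10.3, and Zscan26, a zinc finger gene, from 65.5 and 66.4 to 12.7 and 14.8 RPKM. Msantd2 fell from 21.8 and 21.4 to 3.74 and 4.34. Each of these 8 genes had both B libraries on 1 side of both M libraries, as the rule required, and passed in all 14 alternatives.

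Ribosome-protected fragments (RPFs) of the same groups are a separate readout that did not choose these genes. Of the 201 higher genes 189 had a mean of at least 1 RPKM in RPF, with a median log2 difference of -0.16 between the groups and 41.3% of genes above 0. Of the 665 lower genes 485 had such a mean, with a median of -0.51 (-0.79 with a pseudocount of 0.1) and 26.0% above 0. Over all 9455 genes that met the filter in both assays the median was -0.43 (-0.55 with a pseudocount of 0.1) and 28.3% were above 0. No test was run on the RPF differences. The study reports fewer genes with RPFs in the B than in the M group. Angptl8, for instance, had RPF RPKM of 8.94 and 5.47 in M1 and M2, 22.5 in B1 and 0 in B2. The part of such zeros in these medians was not tested. Leaving out single Ribo-seq libraries moved the median RPF difference of the higher genes between -0.35 and 0.04, that of the lower genes between -0.58 and -0.40 and that of all genes between -0.49 and -0.26. Of genes picked here after their RPF values were seen, Gnmt had 625 and 1185 RPF RPKM in M1 and M2 and 1633 and 732 in B1 and B2, and Fbp1 had 190 and 320 against 374 and 243, both with overlapping groups. The noncoding Neat1 had 748 and 599 against 33.0 and 126.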

How the data were processed

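Liver RNA-seq of 2 M and 2 B libraries was analysed, with the Ribo-seq of the same groups as a second readout. Per the study's methods, FANSe2 placed the reads on mm10, and the values the authors deposited are RPKM per gene, and the submitters' processing notes also name edgeR. RPKM relates reads to transcript length and library total, so a few abundant genes can move all others. Of the 24539 entries, 4 sharing a symbol were left out. Library totals were recovered from the steps of low values. Values were taken as log2(RPKM + 1). Genes were kept from a mean of 1 RPKM upward. The groups were compared two-sided in limma (version 3.58.1, under R 4.3.3), by lmFit and trended eBayes, with Benjamini-Hochberg adjustment over all genes. A fold change on this scale understates that of low genes. The members and lists were chosen with earlier results of these data known. Named genes were, per list and direction, up to 3 called members with the smallest p and groups that do not overlap, 5 unlisted coding and 5 noncoding genes or pseudogenes per direction, and fixed anchor genes (Tf is Trf in the file). Of these, Zcchc7, 4930404H11Rik and Olfr856-ps1 are not described, and 2 others are not reported here. The fit was tested on simulated data. Alternatives were other pseudocounts, filters and scalings, no trend, a replicate block and leaving out each library. The study sequenced livers of the M and B groups, and the series holds no library of its control diet group. How multiply mapped reads were assigned is not given in the sources used here.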

Additional observations from a re-analysis of the deposited data

How the results depend on the processing

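With no filter on low genes, 77 genes were higher and 188 lower. Shifting to a common median gave 540 and 291. An adjusted p under 0.05 with the same fold gave 535 and 1353. Leaving out 1 library gave 169 to 503 higher and 535 to 1055 lower genes, with the lowest counts without M1 and the highest without B2. The cause of these shifts was not tested. A replicate block in the fit raised the calls to 498 higher and 1229 lower. The numbers gave no sign of pairing (correlation of same-numbered libraries -0.104), and the crossed pairing, chosen after seeing the data, gave 474 and 1303. An adjusted p under 0.05 with the same fold could lose no call, because every call had an adjusted p of at most 0.0113. None of the named calls turned direction, which could hardly happen with a log2 change beyond 1 and groups that do not overlap. Of the 82 named genes that passed, 33 did so in all 14 alternatives. 41 missed the threshold with no filter, 19 without M1, 17 on a common median, 16 without M2, 11 without B1 and 3 without B2. With 2 libraries per group the spread between animals is not known, and in M1 a transcript of 1 kb with 3 reads stood at 0.257 RPKM.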

Other observations

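Some gene groups were looked at only after the values were seen. Of 37 tested proteasome subunits, 4 (10.8%) rose (Psmd13, Psma1, Psmb7 and Psma5) and none fell, with a median log2 fold change of 0.59 and 31 above 0. On a common median and without B2, 9 were higher, and without M1 or M2, 3. Of 230 tested zinc finger genes with a Zfp symbol, none rose and 36 (15.7%) fell. Their median was -0.64 (-0.36 on a common median, with 14 lower, and -0.43 relative to genes of the same length), and 214 lay below 0. Both groups stand against 2.30% higher and 6.56% lower among all tested genes.

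Ctsd, the lysosomal protease cathepsin D, was at 75.9 and 80.7 RPKM in M1 and M2 and at 204 and 198 in B1 and B2, and passed as higher. Gadd45b, a stress-induced regulator of growth arrest, passed as lower, from 43.2 and 6.61 RPKM in the M libraries to 0.631 and 1.75 in the B libraries, with M1 far above M2.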
